A study of Rattus norvegicus with 12 samples.

Results

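The change between the second and the fourth week after a complete cut through the spinal cord was measured in whole urinary bladder, as the set of all genes in 3 libraries from day 28 against 3 libraries from day 14. These 6 of the 12 libraries of the series were chosen by their labels, and the 3 libraries of uninjured rats serve as a level to read them against. The remaining 3, from day 7, enter only the filter on low counts, the scaling of the libraries and the estimate of spread. All were from female Wistar rats, an outbred laboratory strain, of 10 to 12 weeks per the labels. The injured rats carried a complete transection made with a scalpel at thoracic segment 10, with the dura kept whole, and were sampled 28 or 14 days later. The controls had no injury, and no sham operation is described. The labels number the replicates without saying that each came from a separate animal, so p-values measure the spread between these libraries. Of 40154 genes listed, 17687 passed the filter on low counts and were tested.

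The bladder stores urine behind the urothelium, an epithelium whose surface umbrella cells carry rigid plaques of uroplakin proteins and whose tight junctions keep urine out of the tissue. Beneath it lie a layer of connective tissue with vessels, nerve endings and resident immune cells, and the detrusor, the smooth muscle that empties the organ. A cord cut above the sacral segments parts the bladder from the brain: emptying first fails, urine is retained, and over weeks a spinal reflex takes over that contracts the detrusor without coordination with the outlet.

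Total RNA had been depleted of ribosomal RNA and read as single 50-base reads. Day-28 libraries held 28847346 to 29510548 counts, day-14 libraries 26275314 to 28663415 and control libraries 27044344 to 28412801. Mitochondrially encoded transcripts made up 5.99 to 6.97% of counts at day 28 and 5.55 to 6.52% at day 14. Markers of urothelium, smooth muscle and fibroblasts were all detected in each library. Of these libraries 2 stood apart: day-28 replicate 3 held 2592 CPM (counts scaled to a common library size) of immunoglobulin and T-cell receptor segments, against 45.9 and 86.1 CPM in the other 2 of its day, and day-14 replicate 3 held 172 CPM of 5 neutrophil markers, against 6.0 and 6.6 CPM in the other 2 of its day. Results that turn on either library are given beside their value without it.

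The question the comparison addresses is what was still changing in the bladder after the second week. Immune genes of the T cell and of antigen presentation, genes of mucosal defence and genes of cell division were higher at day 28, and single genes such as Krt20, Scube2, Map2 and Kcnb2 were lower. In all, 553 genes rose and 215 fell at an adjusted p under 0.05, together 4.34% of the genes tested (3.13% higher and 1.22% lower). Of these, 385 rose and 87 fell by at least 1 on the log2 scale. Among all genes tested the 3 day-28 libraries lay above all 3 day-14 libraries in 12.6% and below them in 9.73%. Among the called genes the groups did not overlap in 551 of 553 that rose and 214 of 215 that fell. The median log2 fold change was 1.39 for the genes that rose, −0.86 for those that fell and 0.00 for all genes tested.

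**Figure D1:**
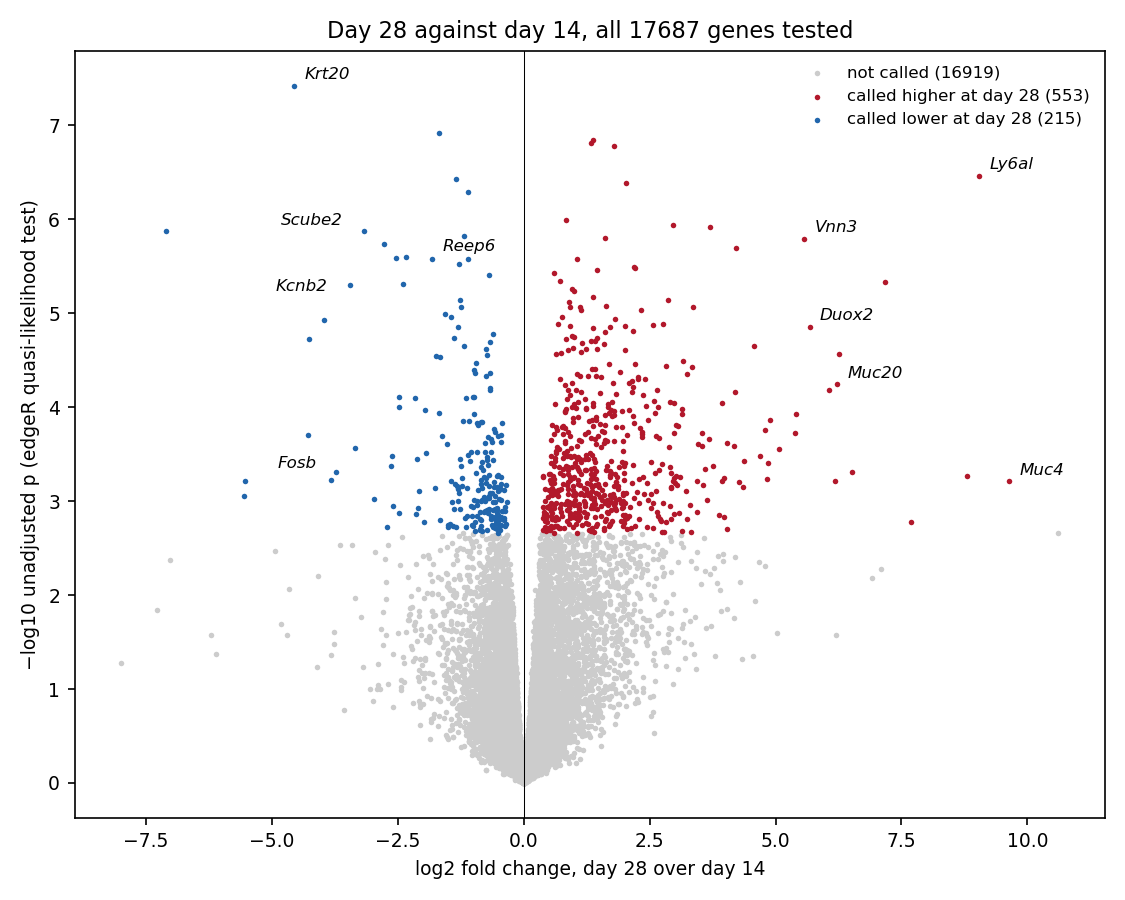
Each point is 1 of the 17687 genes tested, with the log2 fold change of day 28 over day 14 on the x axis and −log10 of the unadjusted p on the y axis. Red points are the 553 genes called higher, blue points the 215 called lower and grey points those not called, and Krt20 and Ly6al have the smallest p of the labelled genes.

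These counts rest on a spread estimated over all 12 libraries. With only the 6 libraries of day 28 and day 14 fitted, 42 genes were called (28 higher and 14 lower), and 41 of them were among the 768 of the full fit. Of the genes named here these were Krt20, Ly6al, Vnn3, Ctla4, Foxp3, Olig1, Scube2, Reep6, Laptm5, Gsta4, Gstm1 and, named for its non-coding isoform, Dnah9. Leaving out 1 library of the 12 gave 261 calls (without day-28 replicate 2) to 1120 calls (without day-28 replicate 1). Without the other libraries of these days the count was 345 (day-28 replicate 3), 367 (day-14 replicate 1), 313 (day-14 replicate 2) and 749 (day-14 replicate 3). Of 84 named genes that were called, 38 kept the call whichever library was left out.

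The level in uninjured bladder puts each change in place. For 368 of the 553 genes that rose the control mean lay below both days, for 179 it lay between them and for 6 above both. For 137 of the 215 genes that fell the control mean lay above both days and for 78 between them. Among all genes tested the control mean lay below both days in 37.0%, between them in 26.5% and above both in 36.5%. The day-28 mean was farther from the control mean than the day-14 mean was in 519 genes that rose, 204 that fell and 64.1% of all genes tested. The day-14 and day-28 libraries enter both the call and this placing, so the placing is a description. Against control, 18.5% of genes tested were called at day 28 and 2.45% at day 14, with the control libraries shared.

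Changes are given as log2 fold changes of day 28 over day 14 ± standard error, with the adjusted p of edgeR's quasi-likelihood test. The 12 largest named rises held 5 members of the mucosal defence and secretory list (Muc4, Muc20, Duox2, Duoxa2 and Gkn3) beside Ly6al, Vnn3, Noxo1, Fcgbp, Ubd, Clca2 and Cd3e. All gene lists were chosen with earlier results of these data known, so counts of their members are a description. The 12 largest rises and the 12 largest falls were named only where the 2 days did not overlap, so that separation came with the choice. Muc4 (chromosome 11, 71242973 to 71285217, rn6) and Muc20 (chromosome 11, 71222602 to 71236223) encode membrane-bound mucins and are neighbouring genes. Muc4 stood at 1.67, 19.2 and 1089 CPM in day-28 bladders, 0.400, 0.206 and 0.779 CPM in day-14 bladders and 0.313, 0.364 and 0.321 CPM in controls. The day-28 libraries all lay above the others, but replicate 3 held almost all of the signal. Muc4 rose by 9.64 ± 2.06, adjusted p = 0.0272, and by 4.49 without day-28 replicate 3. Its call was lost without day-14 replicate 1, 2 or 3 (adjusted p = 0.0906, 0.0934 and 0.0632). Muc20 stood at 12.5, 21.9 and 112 CPM at day 28 and 0.0364, 0.550 and 1.34 CPM at day 14 and rose by 6.23 ± 1.01, adjusted p = 0.00848. Every day-28 library was above every day-14 library and above the controls (0.321 to 1.17 CPM).

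Duox2 (chromosome 3, 114218187 to 114237808) encodes the dual oxidase that releases hydrogen peroxide at mucosal surfaces, and Duoxa2 the factor that brings it to the cell surface. Duox2 stood at 109.5, 213 and 899 CPM at day 28, 5.38, 3.85 and 14.7 CPM at day 14 and 2.54, 4.26 and 2.82 CPM in controls. The lowest day-28 library lay far above the highest day-14 and control libraries. Its rise was 5.68 ± 0.79, adjusted p = 0.00411, and 4.34 without day-28 replicate 3. Duoxa2 overlaps Duox2 on the opposite strand in the authors' annotation and holds fewer counts, and the strand setting of the counting is not given, so its own rise (19, 38.97 and 136 CPM at day 28 against 1.56, 0.584 and 4.85 CPM at day 14; 4.79 ± 0.88, adjusted p = 0.0147) is uncertain; the call was lost without day-14 replicate 1 (adjusted p = 0.0561). Noxo1, an organiser subunit of a related oxidase, stood at 5.23, 6.86 and 20.1 CPM at day 28 and 0.0364, 0.0687 and 0.991 CPM at day 14 (4.86 ± 0.98, adjusted p = 0.0222). That call was lost without day-28 replicate 3 (adjusted p = 0.0737), day-14 replicate 1 (0.0602) or day-14 replicate 2 (0.0694), and without day-14 replicate 3 the log2 fold change was 7.53. The related pair Duox1 and Duoxa1 showed log2 fold changes of 0.19 ± 0.22 and −0.01 ± 0.20 and was not called (adjusted p = 0.679 and 0.986).

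Ly6al (chromosome 7, 116557519 to 116561058), a member of the Ly6 family of small surface proteins, had the largest rise among those that kept their call in every fit that left out a library. It stood at 307, 90.1 and 711 CPM in day-28 bladders, 0.255, 0.447 and 1.38 CPM in day-14 bladders and 0.209, 0.656 and 0.107 CPM in controls (9.05 ± 0.87, adjusted p = 0.000905). All 3 day-28 libraries lay far above the rest. Reads of this length may not part close copies within that family. Vnn3 (chromosome 1, 22649114 to 22661376), of the vanin family of pantetheinases, stood at 5.07, 6.79 and 22.2 CPM at day 28 and 0.255, 0.172 and 0.283 CPM at day 14 (5.56 ± 0.62, adjusted p = 0.00168). Its day-14 libraries were close together and no higher than the controls (0.291 to 0.522 CPM).

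Ubd (chromosome 20, 1876175 to 1878126) encodes the ubiquitin-like modifier FAT10, which is induced by inflammatory cytokines. It stood at 59.6, 56.04 and 332 CPM at day 28, 10.3, 3.61 and 10.4 CPM at day 14 and 0.835, 1.02 and 0.714 CPM in controls and rose by 4.20 ± 0.69, adjusted p = 0.00955 (2.83 without day-28 replicate 3). Here day 14 already lay above the controls and day 28 above day 14, with no overlap. Gkn3, a gastrokine of the stomach mucosa, stood at 12.5, 64.00 and 191 CPM at day 28 and 1.31, 5.64 and 2.09 CPM at day 14 (4.88 ± 0.87, adjusted p = 0.0132); without day-28 replicate 3 the rise was 3.66. Clca2, an adhesion and channel-regulating protein of stratified epithelia, stood at 28.4, 24.3 and 89.4 CPM at day 28 and 4.47, 3.09 and 1.66 CPM at day 14 (3.94 ± 0.67, adjusted p = 0.0109). Fcgbp, a secreted mucus protein that binds immunoglobulin G, stood at 17.3, 29.1 and 324 CPM at day 28 and 2.87, 2.47 and 7.57 CPM at day 14 (4.84 ± 1.03, adjusted p = 0.0265). Its rise was 2.43 without day-28 replicate 3, and its call was lost without day-14 replicate 1 (adjusted p = 0.0897) or replicate 2 (0.0918). For Gkn3, Clca2 and Fcgbp the control means lay within a few CPM of the day-14 means.

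**Figure D2:**
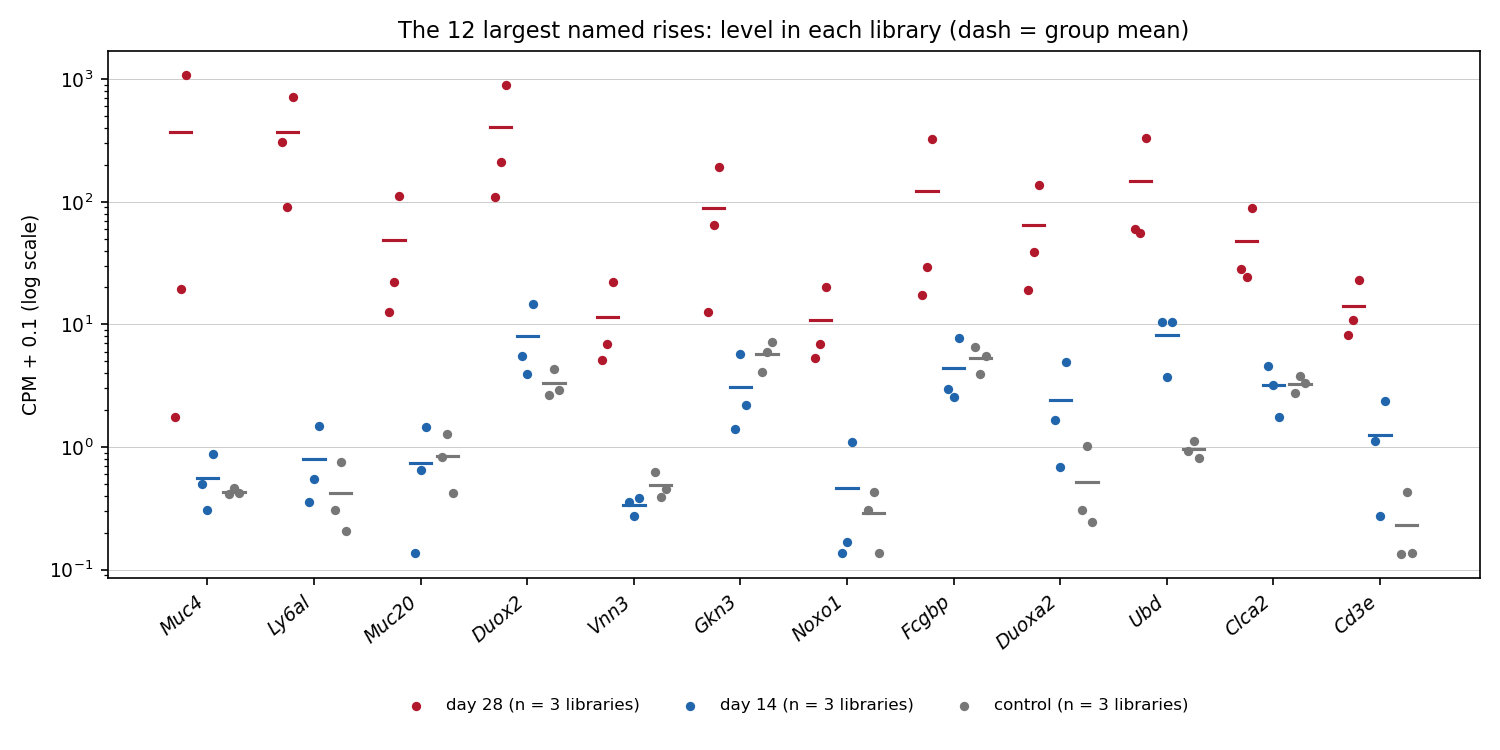
Level of the 12 largest named rises in each library, as CPM + 0.1 on a log axis, with day 28 (red), day 14 (blue) and control (grey) side by side for each gene and a dash at each group mean. All red points lie above all blue points of the same gene because the genes were chosen so, and day-28 replicate 3 is the highest red point in all 12.

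As the list of mucosal defence and secretory epithelium was chosen with earlier results of these data known, its share is a description. In it, 6 of 23 tested members rose and 0 fell (median 1.90), beside 3.13% of all genes that rose and a median of 0.00. The sixth was Pigr, the receptor that carries immunoglobulin A across epithelia, at 508, 775 and 2538 CPM at day 28 and 149, 169.7 and 189 CPM at day 14 (2.91 ± 0.49, adjusted p = 0.0109). All day-28 libraries were above all others, and the rise was 1.92 without replicate 3. The antibacterial protein Lcn2 (2.21 ± 0.66, adjusted p = 0.0859) and the mucin Muc1 (4.04 ± 1.40, adjusted p = 0.133) did not pass the test. The count of members was 4 to 10 when 1 library was left out, lowest without day-14 replicate 1 and highest without day-28 replicate 1, and 0 with only the 2 days fitted. Day-28 replicate 3, in which most of these genes were highest, also held the most immunoglobulin segments and the least smooth muscle signal (5 markers, 18427, 14016 and 8471 CPM in day-28 replicates 1, 2 and 3). The part of that make-up in these rises was not tested.

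The 250 bases before the start of Ubd and of Krt20 are shown because these genes stand for the rise and the fall and their listed start is the outermost start of the gene. Both are from RefSeq (build GRCr8), are read on the minus strand and end at the base before the start, at chr20:1392686-1392935 and chr10:84890286-84890535. Capitals mark matches on either strand to motifs of NF-kappaB, an interferon-stimulated response element (GAAANNGAAA), a STAT site (TTCNNNGAA), AP-1 (TGANTCA) and a TATA box (TATAAA).
Ubd: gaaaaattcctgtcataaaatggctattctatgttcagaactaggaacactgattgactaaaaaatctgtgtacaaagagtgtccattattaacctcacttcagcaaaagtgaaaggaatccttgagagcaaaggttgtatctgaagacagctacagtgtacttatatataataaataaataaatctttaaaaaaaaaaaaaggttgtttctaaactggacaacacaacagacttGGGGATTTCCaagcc
Krt20: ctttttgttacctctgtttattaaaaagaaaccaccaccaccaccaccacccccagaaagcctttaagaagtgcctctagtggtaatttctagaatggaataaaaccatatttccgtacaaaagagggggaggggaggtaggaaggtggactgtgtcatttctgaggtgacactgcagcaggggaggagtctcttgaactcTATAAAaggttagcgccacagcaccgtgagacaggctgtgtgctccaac
Ubd has 1 match, to the NF-kappaB motif close to its start, and Krt20 has 1, a TATA box. Of the 12 largest named rises, 10 had a window in the table, and 1 of the 10 (Ubd) matched NF-kappaB, which 6.33% of 33469 windows of that length do. The interferon element was matched by 1 (Muc4), the STAT motif by 2 (Clca2 and Muc4), AP-1 by 2 (Clca2 and Duox2) and the TATA box by 1 (Duox2), beside 3.41%, 7.67%, 6.34% and 12.9% of all windows. Of the 12 largest falls, 10 had a window, and NF-kappaB was matched by 2 (Fndc5 and Sncg), the interferon element by 1 (Fosb), the TATA box by 2 (Fosb and Krt20) and the others by 0. These are matches of letters and no evidence that a factor binds.

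Genes of T cells were higher at day 28. Of 25 tested members of the T and NK cell list, 18 rose and 0 fell, and all 25 had a log2 fold change above 0 (median 2.05), beside 3.13% of all genes that rose. In bulk tissue, more cells of a type and more RNA per cell cannot be told apart. Cd3e, a chain of the T-cell receptor complex, stood at 8.03, 10.8 and 23.1 CPM in day-28 bladders, 1.02, 0.172 and 2.27 CPM in day-14 bladders and 0.0348, 0.328 and 0.0357 CPM in controls (3.60 ± 0.74, adjusted p = 0.0241). The groups did not overlap, but the call was lost without day-28 replicate 2 (adjusted p = 0.0549), day-28 replicate 3 (0.0795) or day-14 replicate 1 (0.0773).

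Regulators of T-cell activation were among the genes that rose. Ctla4, the inhibitory receptor of activated and regulatory T cells, stood at 3.10, 4.06 and 7.57 CPM at day 28, 0.291, 0.206 and 0.283 CPM at day 14 and 0.0348, 0.0728 and 0.107 CPM in controls (4.22 ± 0.48, adjusted p = 0.0019). Icos, a co-stimulatory receptor, stood at 23.6, 35.01 and 46.2 CPM at day 28 and 4.87, 1.37 and 3.93 CPM at day 14 (3.36 ± 0.45, adjusted p = 0.00341). In both the lowest day-28 library lay several times above the highest day-14 library. The kinases of the T-cell receptor, Lck and Zap70, rose by 2.34 ± 0.31, adjusted p = 0.00348 and 2.37 ± 0.39, adjusted p = 0.00984. Foxp3 (9.73, 7.45 and 5.94 CPM at day 28 against 0.982, 0.344 and 0.460 CPM at day 14; 3.69 ± 0.40, adjusted p = 0.00168), the master transcription factor of regulatory T cells, was chosen after its values were seen. It was highest in day-28 replicate 1 and lowest in replicate 3, the opposite order to Cd3e. These 5 genes kept their calls whichever library was left out.

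The count of T and NK members that rose was 7 without day-28 replicate 2, 7 without day-28 replicate 3, 9 without day-14 replicate 1 and 8 without day-14 replicate 2, and 2 with only the 2 days fitted. At a mean of at least 5 CPM it was 5, since most of these genes are rare in bladder. The sum of 5 T-cell markers was 26.2, 39.3 and 71.6 CPM at day 28, 8.62, 6.15 and 9.80 CPM at day 14 and 5.36 to 7.14 CPM in controls, and each of the 5 markers was called higher. An exact two-sided permutation test of the sum gave p = 0.1, the smallest that 3 against 3 allows.

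Genes of antigen presentation by MHC class II were higher too. Of 13 tested members 8 rose and 0 fell (median 1.34), beside 3.13% of all genes that rose. Ciita, the factor that switches on class II genes, stood at 28.7, 51.2 and 61.1 CPM at day 28, 19.3, 10.03 and 12.3 CPM at day 14 and 8.001, 7.68 and 8.18 CPM in controls (1.76 ± 0.30, adjusted p = 0.0109). The reductase Ifi30, which unfolds antigens in endosomes, stood at 83.8, 100.2 and 83.3 CPM at day 28 and 38.05, 43.1 and 55.4 CPM at day 14 (0.97 ± 0.14, adjusted p = 0.00527). In both genes the levels climbed from control over day 14 to day 28 without overlap. The class II chain RT1-Db1 rose by 1.30 ± 0.23, adjusted p = 0.0133, with the caution that short reads may not part the rat RT1 genes. The invariant chain Cd74, by far the most abundant, stood at 985, 1682 and 1986 CPM at day 28 and 715, 649.9 and 605 CPM at day 14 (1.24 ± 0.25, adjusted p = 0.0205). Its call was lost without any 1 of day-28 replicates 2 and 3 and day-14 replicates 1, 2 and 3 (adjusted p = 0.0681, 0.0622, 0.051, 0.0665 and 0.0506). The count of members was 3 without day-28 replicate 2 or 3, 4 without any 1 day-14 library and 0 with only the 2 days fitted.

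Macrophage genes gave fewer calls. Of 23 tested members of the macrophage and myeloid list 4 rose and 0 fell, beside 3.13% of all genes that rose. All 23 had a log2 fold change above 0 (median 0.80). Laptm5, a lysosomal protein of blood cells, stood at 111, 136 and 125 CPM at day 28, 50.2, 43.9 and 53.5 CPM at day 14 and 23.8, 21.9 and 27.6 CPM in controls (1.34 ± 0.12, adjusted p = 0.000587), and its libraries were tight within each group. Csf1r, the receptor that macrophages need to survive, stood at 169.7, 281 and 207 CPM at day 28 and 104, 126 and 113 CPM at day 14 (0.94 ± 0.18, adjusted p = 0.0183); the call was lost without day-28 replicate 2 (0.0595) or day-14 replicate 1 (0.066). Cd68, a lysosomal marker of macrophages, stood at 134, 109 and 88.97 CPM at day 28, 28.9, 58.1 and 70.3 CPM at day 14 and 23.4, 17.7 and 21.6 CPM in controls. Its rise (1.08 ± 0.26, adjusted p = 0.0414) was lost in 11 of the 12 fits without 1 library, with adjusted p of 0.0525 to 0.107. The count of 4 became 1 without day-28 replicate 2 or day-14 replicate 1, 2 without day-28 replicate 3 or with 5 of the 6 other libraries of day 7 and control left out 1 at a time, 6 without day-14 replicate 2, 9 without day-14 replicate 3 and 1 with only the 2 days fitted.

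Other immune lists gave few calls. Ncf1, an oxidase subunit of phagocytes, was the 1 of 13 tested neutrophil members that rose, at 57.97, 69.1 and 67.4 CPM at day 28, 15.7, 8.07 and 18.9 CPM at day 14 and 4.59, 4.70 and 4.61 CPM in controls (2.19 ± 0.26, adjusted p = 0.00217), while the median of that list was −0.35. That median turned on day-14 replicate 3, the library with 172 CPM of neutrophil markers: without it the median was 2.33, 13 of 14 tested members were above 0 and 4 rose. Without day-28 replicate 1, 3 rose, and with only the 2 days fitted 0 did. C3, the central complement protein, stood at 129, 234 and 389 CPM at day 28, 24.5, 6.46 and 37.6 CPM at day 14 and 3.24, 2.55 and 2.46 CPM in controls (3.46 ± 0.66, adjusted p = 0.0172) and was the 1 of 21 complement members that rose. All day-28 libraries lay above the rest, and the call was lost without day-14 replicate 1 (adjusted p = 0.0574). The complement count was 4 without day-28 replicate 1 or day-14 replicate 2. Of that list 18 members had a log2 fold change above 0 (median 0.78), and 13 were higher at an unadjusted p under 0.05 in edgeR. Of 41 tested chemokines and cytokines 2 rose, near the 3.13% of all genes. The median of that list was 1.30, with 36 members above 0 and 15 higher at an unadjusted p under 0.05 in edgeR. The count of called members was 1 without day-28 replicate 2 or 3, day-14 replicate 2 or day-7 replicate 2. It was 6 without day-28 replicate 1 and 11 without day-14 replicate 3, 0 with only the 2 days fitted and 7 by DESeq2. Cx3cl1, the membrane-bound chemokine fractalkine, stood at 168, 194 and 278 CPM at day 28 and 51.9, 84.9 and 75.95 CPM at day 14 (1.59 ± 0.23, adjusted p = 0.00505).

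The other was Il17a, a cytokine of T cells, named after its values were seen like Tnfsf11. Il17a had 177 counts in all at day 28 and 0 at day 14, with 0.367, 3.69 and 1.76 CPM in the day-28 libraries. Set against a floor of 3 counts over the group and scaled for library size, it was 54.9-fold higher (lower limit of the exact 95% interval 44.2, counting error only). Its call (adjusted p = 0.0262) did not survive the loss of day-7 replicate 2 (0.0589), day-28 replicate 2 (0.0662) or 3 (0.06), or day-14 replicate 1 (0.0609) or 2 (0.0646). Tnfsf11, the ligand RANKL, had 82 counts at day 28 and 0 at day 14, 25.4-fold higher against that floor (lower limit 20.2). It lost its call without any of 9 libraries (adjusted p = 0.065 to 0.113). Of the B and plasma cell list 3 of 11 tested members rose (Irf4, Cd22 and Blk), beside 3.13% of all genes that rose. None did (0) without day-28 replicate 2, day-28 replicate 3 or day-14 replicate 1. The B and plasma cell count was 8 without day-28 replicate 1, but of 18 tested members, since more rare genes passed the filter there. A rare gene can pass through the libraries in which it is high, so these counts are a description. Of the interferon response list 0 of 31 were called by edgeR, with 5 higher and 7 lower at an unadjusted p under 0.05 and 3 higher and 2 lower by DESeq2 (median −0.66). For that list 4 were higher without day-28 replicate 1, 5 were lower without day-14 replicate 1, and the median was 0.19 without day-14 replicate 2.

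**Figure D3:**
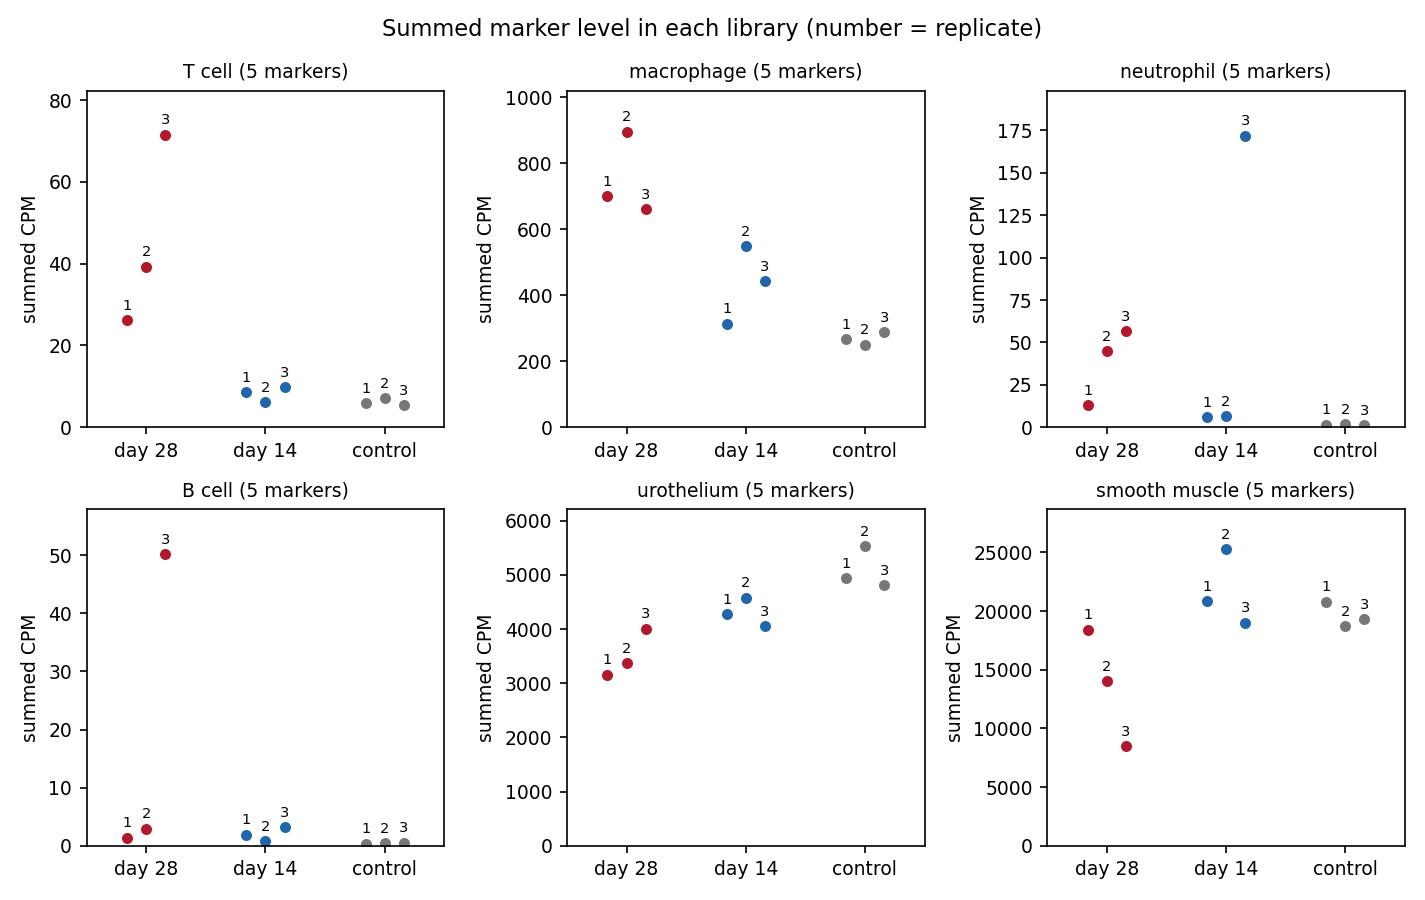
Summed CPM of 5 markers of each of 6 cell types, per library, with day 28 left, day 14 in the middle and control right and the replicate number at each point. T-cell and macrophage sums at day 28 lie above all day-14 and control libraries, the neutrophil sum is highest in day-14 replicate 3 and the B-cell sum in day-28 replicate 3, and smooth muscle is lowest in day-28 replicate 3.

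Genes of cell division were higher at day 28. Of 35 tested members of the cell cycle and replication list 13 rose and 0 fell, beside 3.13% of all genes that rose. All 35 had a log2 fold change above 0 (median 1.63). Mki67, the proliferation marker, stood at 23.2, 49.7 and 78.2 CPM at day 28, 14.1, 6.98 and 12.5 CPM at day 14 and 17.2, 9.21 and 7.32 CPM in controls (2.17 ± 0.44, adjusted p = 0.0231). Day-28 replicate 1 lay closer to the day-14 libraries than replicates 2 and 3 did, and the controls overlapped with day 14. The Mki67 call was lost without day-28 replicate 2 (adjusted p = 0.0617), day-28 replicate 3 (0.0691) or day-14 replicate 2 (0.0797).

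The spindle factor Tpx2 (7.37, 14.9 and 17.3 CPM at day 28 against 3.27, 4.64 and 3.43 CPM at day 14; 1.80 ± 0.31, adjusted p = 0.0117) and the centromere motor Cenpe (6.80, 12.6 and 15.5 CPM at day 28 against 3.49, 3.50 and 3.79 CPM at day 14; 1.70 ± 0.30, adjusted p = 0.0121) kept their calls whichever library was left out. The count of 13 was 2 without day-28 replicate 2, day-28 replicate 3 or day-14 replicate 2, 4 without day-14 replicate 1, 8 without day-14 replicate 3 and 22 without day-28 replicate 1. It was 7 or 8 without day-7 replicate 2 or 3 or control replicate 2, 20 with no filter on low counts, 4 with day 28, day 14 and control fitted and 0 with the 2 days alone. Mki67 and the T-cell marker sum had the same order over the day-28 libraries, with replicate 3 highest; the part of dividing immune cells was not tested.

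Among genes of the umbrella cells that face the urine, most of the few calls were falls. Of 20 tested members of the urothelial plaque and umbrella cell list 4 fell and 1 rose. Among all genes 1.22% fell and 3.13% rose, so the 1 rise is near the share of all genes. Of the 20 members 9 had a log2 fold change above 0 (median −0.21). Krt20 (chromosome 10, 87342514 to 87351045), the keratin of umbrella cells, stood at 0.867, 1.73 and 0.834 CPM in day-28 bladders, 21.2, 33.4 and 26.8 CPM in day-14 bladders and 78.9, 63.2 and 60.1 CPM in controls. The 3 groups were fully apart, day 14 already below the controls and day 28 lower again. Krt20 fell (−4.57 ± 0.36, adjusted p = 0.000587), with the smallest p of all genes tested, and kept the call in every fit with a library left out.

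Upk2, a uroplakin of the plaque, stood at 458, 492 and 358 CPM at day 28, 794, 1013 and 681 CPM at day 14 and 925, 1050.4 and 963 CPM in controls (−0.93 ± 0.18, adjusted p = 0.0195); the call was lost without day-28 replicate 3 (0.0637) or day-14 replicate 2 (0.0646). Upk1a, its partner of the tetraspanin kind, stood at 782, 890.5 and 1093 CPM at day 28 and 1427, 1428 and 1347 CPM at day 14 (−0.60 ± 0.14, adjusted p = 0.0367), and lost its call without day-28 replicate 1 or 2, any day-14 library or any control library (adjusted p = 0.0501 to 0.125). Upk3a, another uroplakin, stood at 1060.2, 982 and 1365 CPM at day 28 and 995, 1081 and 994 CPM at day 14 and was not called (0.15 ± 0.15, adjusted p = 0.637). Its range at day 28 overlapped with that at day 14. The difference between uroplakins was not tested. Krt18, a keratin of simple epithelia, fell (−0.82 ± 0.17, adjusted p = 0.0243; lost without day-28 replicate 2, 0.088), and the transferase Gsta4 rose by 1.27 ± 0.20, adjusted p = 0.00765, at 28.9, 35.5 and 39.8 CPM at day 28 against 13.8, 14.3 and 15.04 CPM at day 14. The count of members that fell was 2 to 5 with 1 library left out, lowest without day-28 replicate 2 or day-14 replicate 2, and 1 (Krt20) with only the 2 days fitted.

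The sum of 5 urothelial markers, which include both uroplakins that fell, was 3158, 3363 and 4002 CPM at day 28 and 4273, 4578 and 4051 CPM at day 14. The groups did not overlap (exact two-sided permutation p = 0.1, the smallest possible), but with raw totals in place of TMM-scaled ones they did (p = 0.2). The part of urothelial content in the falls was not tested. Of 19 tested genes of basal and intermediate urothelium 0 were called by edgeR, with 3 higher and 1 lower at an unadjusted p under 0.05 and 1 each way by DESeq2. The basal keratins Krt5 (234, 388 and 417 CPM at day 28 against 49.3, 188 and 159 CPM at day 14; 1.39 ± 0.49, adjusted p = 0.136) and Krt14 (40.2, 19.8 and 56.95 CPM at day 28 against 3.89, 12.1 and 18.7 CPM at day 14; 1.75 ± 0.68, adjusted p = 0.177) had every day-28 library above every day-14 library and missed the threshold. Shh, the hedgehog ligand of basal cells, was at 0.23 ± 0.24, adjusted p = 0.649 and shares its place with the far more abundant Kmt2c. Of 19 tested tight and adherens junction genes 1 rose and 1 fell (median 0.01), beside 3.13% and 1.22% of all genes. The tight junction scaffold Tjp3 rose by 1.12 ± 0.18, adjusted p = 0.00765. It stood at 126, 125 and 188 CPM at day 28 and 52.2, 67.5 and 82.6 CPM at day 14. The claudin Cldn23 fell (log2 fold change −0.94, adjusted p = 0.0344) and lost its call without any 1 of 6 libraries (up to 0.131). Falls numbered 0 to 2 with 1 library left out.

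Among the largest falls were single genes known from neurons, which no fixed list holds together. Map2, a protein of the dendritic cytoskeleton, stood at 1.57, 1.96 and 1.70 CPM at day 28, 14.1, 11.2 and 5.34 CPM at day 14 and 14.9, 16.7 and 14.4 CPM in controls (−2.55 ± 0.30, adjusted p = 0.00196). Cntnap2, an adhesion protein of the axon, stood at 3.10, 2.496 and 1.35 CPM at day 28 and 13.97, 21.99 and 11.7 CPM at day 14 (−2.78 ± 0.31, adjusted p = 0.0018), and the potassium channel Kcnb2 at 1.17, 0.632 and 1.09 CPM at day 28 and 13.9, 13.6 and 4.03 CPM at day 14 (−3.44 ± 0.43, adjusted p = 0.00259). In all 3 genes day 28 lay below every day-14 and control library, and day-14 replicate 3 was the lowest of its day.

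The synuclein Sncg, found in peripheral nerve and in fat, stood at 6.43, 18.4 and 5.90 CPM at day 28 and 53.03, 46.7 and 37.3 CPM at day 14 (−2.16 ± 0.36, adjusted p = 0.0103), and the kinase Pak3 at 11.4, 7.15 and 1.12 CPM at day 28 and 42.2, 50.5 and 30.5 CPM at day 14 (−2.65 ± 0.54, adjusted p = 0.0234). The Pak3 call was lost without day-28 replicate 2 (adjusted p = 0.0759), day-14 replicate 1 (0.0531) or day-14 replicate 2 (0.0646). Pclo, a scaffold of the synapse, was at −2.40 ± 0.30, adjusted p = 0.00259, but another gene on the same strand overlaps it with more counts, so its fall is uncertain. The list of neurons and autonomic nerve itself gave 0 calls of 12 tested by edgeR (2 higher and 1 lower at an unadjusted p under 0.05, 2 higher and 0 lower by DESeq2). Of those 12 members 5 had a log2 fold change above 0 and 7 below (median −0.17). Elavl4, an RNA-binding protein that marks neurons, stood at 0 in all 3 day-28 libraries, against 0.145, 0.172 and 0.0708 CPM in day-14 libraries, too few counts to be tested. The neuron marker Snap25 went the other way, at 0.0333, 1.53 and 0.738 CPM at day 28 against 0, 0.137 and 0 CPM at day 14, and was not called. The sum of 5 neuron markers was 3.17 to 9.52 CPM at day 28 and 5.35 to 10.1 CPM at day 14, so the days overlapped. The part of nerve content in the falls was not tested.

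Scube2, a secreted protein that releases hedgehog ligands, fell with them, to 3.60, 3.49 and 1.25 CPM at day 28, against 28.04, 27.8 and 19.2 CPM at day 14 and 29.99, 39.04 and 33.5 CPM in controls (−3.17 ± 0.35, adjusted p = 0.00168). Reep6, an endoplasmic reticulum protein, stood at 11.5, 10.8 and 12.5 CPM at day 28 and 35.6, 55.7 and 32.4 CPM at day 14 (−1.83 ± 0.21, adjusted p = 0.00196). Fndc5, the precursor of irisin, stood at 12.2, 13.7 and 7.67 CPM at day 28 and 64.9, 40.9 and 24.9 CPM at day 14 (−1.96 ± 0.34, adjusted p = 0.0116). In these 3 genes no day-28 library reached the lowest day-14 library, which the rule for naming them required. Their calls held without any 1 library. Alox12, a lipoxygenase of platelets and epithelia, fell (−1.76 ± 0.38, adjusted p = 0.0288) and lost its call without day-28 replicate 2 (0.0909), day-14 replicate 1 (0.0651) or day-14 replicate 2 (0.0819).

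Olig1, a transcription factor known from oligodendrocyte development and named after its values were seen, had 3 counts at day 28 and 438 at day 14. The ratio of the summed counts, scaled for library size, was 0.00637 (exact 95% interval 0.00131 to 0.0187, counting error only). It stood at 0.0333, 0.0666 and 0 CPM at day 28, 5.60, 8.07 and 1.73 CPM at day 14 and 18.4, 22.3 and 23.2 CPM in controls, a steady descent without overlap, and its call (adjusted p = 0.00168) held without any 1 library.

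Fosb, an immediate early transcription factor, took another course: 5.67, 4.49 and 3.75 CPM at day 28, 69.5, 17.97 and 97.2 CPM at day 14 and 5.98, 9.40 and 6.18 CPM in controls (−3.73 ± 0.78, adjusted p = 0.0253). Day 28 was at the level of the controls or just below, and day 14 spread widely above. The Fosb call was lost without day-28 replicate 2 (0.0899), day-28 replicate 3 (0.0879) or day-14 replicate 1 (0.0567). Fosb was the 1 of 28 tested immediate early genes that was called, beside 1.22% of all genes that fell. Such genes respond to handling within minutes, and the time from death to freezing is not given.

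**Figure D4:**
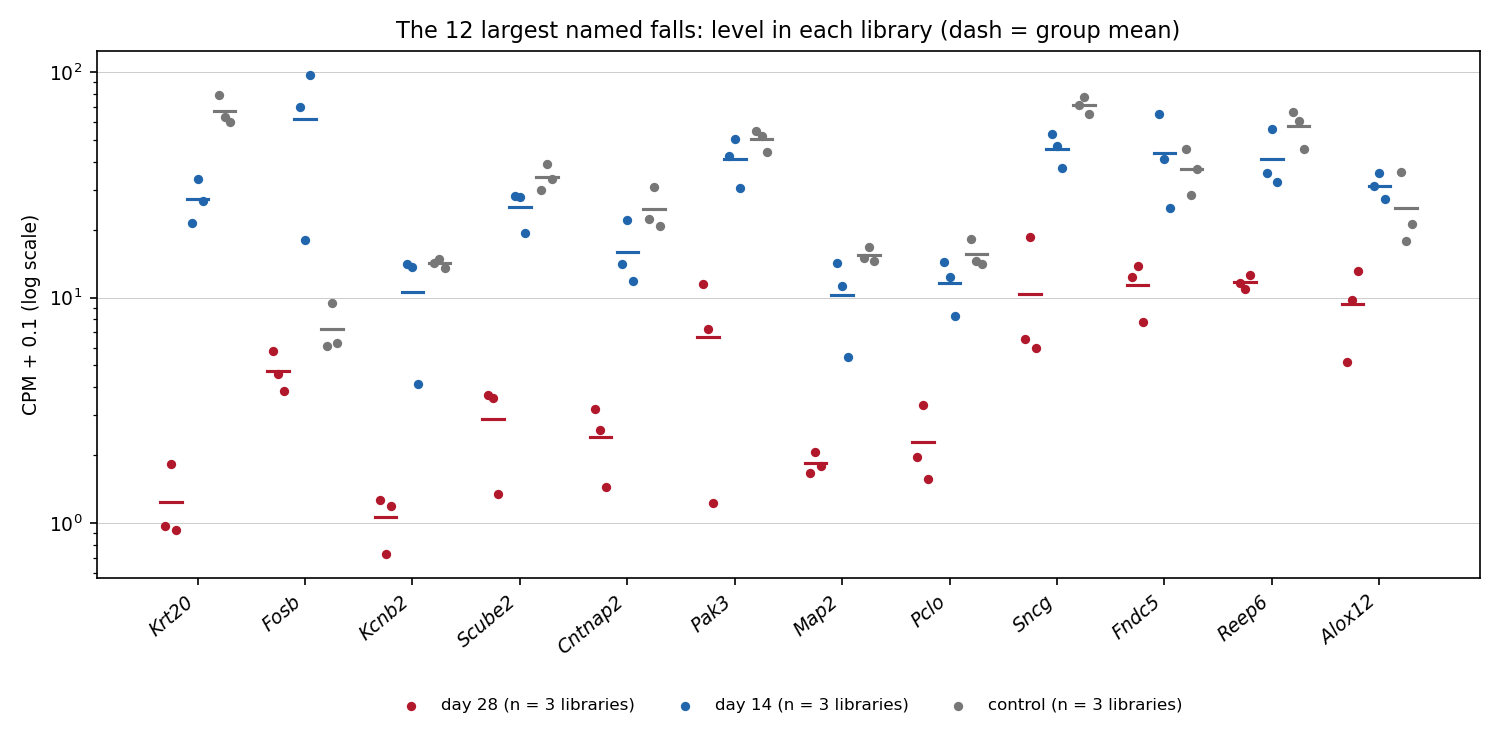
Level of the 12 largest named falls in each library, as CPM + 0.1 on a log axis, with day 28 (red), day 14 (blue) and control (grey) side by side for each gene and a dash at each group mean. All red points lie below all blue points of the same gene because the genes were chosen so. For Fosb the controls lie near the day-28 level while for Krt20 they lie above both days.

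Detrusor genes were not called between the 2 days. All 27 tested genes of the smooth muscle contractile apparatus had a log2 fold change below 0 (median −0.53), and 0 were called by edgeR, with 11 lower at an unadjusted p under 0.05 and 3 lower by DESeq2. Without day-28 replicate 1, 5 were called lower (median −0.86), and without day-28 replicate 3 the median was −0.30. Acta2, smooth muscle actin, stood at 1926, 1879.5 and 1099 CPM at day 28, 2498, 3139 and 2429 CPM at day 14 and 2162, 2167 and 2383 CPM in controls (−0.72 ± 0.22, adjusted p = 0.0893). Myh11, the smooth muscle myosin heavy chain, stood at 8471, 5415 and 3578 CPM at day 28 and 9358, 8012 and 8291 CPM at day 14 (−0.56 ± 0.31, adjusted p = 0.364). In both the lowest library was day-28 replicate 3, and for Myh11 the 2 days overlapped. The summed level of 5 smooth muscle markers was 8471 to 18427 CPM at day 28 and 18997 to 25257 CPM at day 14 (exact two-sided permutation p = 0.1, the smallest possible).

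Receptors that drive or sense contraction gave 3 rises and 1 fall in 40 tested, beside 3.13% and 1.22% of all genes. Rises numbered 0 without day-28 replicate 2 and 1 without day-28 replicate 3, day-14 replicate 1 or day-14 replicate 2, and 0 with only the 2 days fitted. P2rx4, an ATP-gated channel also found in macrophages, stood at 43.2, 53.8 and 50.5 CPM at day 28 and 28.5, 19.8 and 30.2 CPM at day 14 (0.91 ± 0.17, adjusted p = 0.0156; lost without day-28 replicate 2, 0.063). Trpv4, a stretch-sensing channel of the urothelium, stood at 35.04, 40.5 and 32.1 CPM at day 28 and 59.03, 62.2 and 46.2 CPM at day 14 and was lower (−0.64 ± 0.15, adjusted p = 0.0402). Trpv2 and Trpa1 rose by 1.25 ± 0.27, adjusted p = 0.0276 and 2.57 ± 0.64, adjusted p = 0.046. Each of these 3 calls was lost in several fits without 1 library: Trpv2 without day-28 replicate 2 or 3 or day-14 replicate 1 or 2 (up to 0.0896), Trpa1 without 10 of the 12 libraries (up to 0.113) and Trpv4 without 9 (up to 0.138).

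The muscarinic receptors that carry the parasympathetic signal did not pass: Chrm3 stood at 21.97, 14.9 and 7.19 CPM at day 28 and 27.1, 19.7 and 17.4 CPM at day 14 (−0.54 ± 0.38, adjusted p = 0.474) and Chrm2 at 102, 72.9 and 39.8 CPM at day 28 and 72.5, 70.7 and 67.3 CPM at day 14 (0.03 ± 0.25, adjusted p = 0.963). The purinergic receptor P2rx1 of the detrusor (−0.49 ± 0.40, adjusted p = 0.547), the relaxing Adrb3 (−0.65 ± 0.45, adjusted p = 0.459) and the stretch channel Piezo2 (0.48 ± 0.29, adjusted p = 0.394) did not pass either. In each of these 5 genes the 2 days overlapped.

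Matrix genes gave few calls between the 2 days. Of 19 tested collagens 0 were called by edgeR (1 higher at an unadjusted p under 0.05, 1 higher by DESeq2), with a median of −0.12, and 1 was higher without day-14 replicate 3. Col1a1 stood at 4634, 6673 and 2656 CPM at day 28, 3566, 4592 and 5955 CPM at day 14 and 12340.00, 8245 and 10216 CPM in controls (−0.02 ± 0.31, adjusted p = 0.987). Col3a1 was at −0.04 ± 0.27, adjusted p = 0.96, elastin (Eln) at 0.30 ± 0.53, adjusted p = 0.809, tenascin-C (Tnc) at −0.84 ± 0.39, adjusted p = 0.272 and the protease inhibitor Timp1 at 0.02 ± 0.52, adjusted p = 0.99. For each of them the 2 days overlapped, so a difference was not detectable over this spread. Grem1, an inhibitor of bone morphogenetic proteins, stood at 60.6, 112 and 41.01 CPM at day 28, 30.99, 139.9 and 89.6 CPM at day 14 and 1.18, 1.57 and 1.86 CPM in controls (−0.28 ± 0.48, adjusted p = 0.797), and osteopontin (Spp1) was at 0.06 ± 0.62, adjusted p = 0.972.

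Of 30 tested genes of TGF-beta, BMP and activin signalling 4 rose and 0 fell (median −0.09), beside 3.13% of all genes that rose. The count was 1 without day-28 replicate 2, 2 without day-14 replicate 1 or 2, day-7 replicate 2 or control replicate 3, and 0 with only the 2 days fitted. Gdf15, a stress-induced member of the family, stood at 10.6, 12.1 and 9.27 CPM at day 28, 3.16, 2.16 and 1.27 CPM at day 14 and 0.522, 1.31 and 0.964 CPM in controls (2.27 ± 0.36, adjusted p = 0.00793). Lrrc25 overlaps it on the other strand with more counts, so its rise is uncertain. Tgfb1, which drives matrix production, stood at 61.04, 73.1 and 70.9 CPM at day 28 and 45.5, 40.2 and 52.9 CPM at day 14 (0.57 ± 0.12, adjusted p = 0.0288). It lost its call without any 1 of 6 libraries: control replicate 3, day-7 replicate 2, day-14 replicates 1 and 2 and day-28 replicates 2 and 3 (adjusted p = 0.0501 to 0.106). Bmp5 (0.70 ± 0.14, adjusted p = 0.0186) lost its call without day-28 replicate 2 or 3 or day-14 replicate 1 (up to 0.0706), and Bmp4 (0.50 ± 0.12, adjusted p = 0.0351) without any of 10 libraries (up to 0.134).

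Growth and nerve factors moved in both directions. Egfr, the receptor of epidermal growth factor, stood at 138, 143 and 135 CPM at day 28, 229.7, 208 and 258 CPM at day 14 and 247, 268 and 219 CPM in controls (−0.74 ± 0.11, adjusted p = 0.00558). Its day-28 libraries were tight and below all others. Gfra1, the receptor of the neurotrophic factor GDNF, stood at 7.87, 8.29 and 7.67 CPM at day 28 and 22.3, 14.6 and 20.5 CPM at day 14 (−1.27 ± 0.16, adjusted p = 0.00327), and Nrtn, a ligand of the same family, at 3.27, 2.90 and 4.14 CPM at day 28 and 6.91, 8.93 and 6.65 CPM at day 14 (−1.13 ± 0.25, adjusted p = 0.0288; lost without day-28 replicate 1 or 2 or day-14 replicate 1 or 2, up to 0.111). These were the 2 of 21 tested neurotrophic genes that were called, beside 1.22% of all genes that fell. At an unadjusted p under 0.05 in edgeR 3 members were higher and 2 lower, and DESeq2 called 2 higher and 2 lower. Hgf, a growth factor for epithelia, rose by 1.06 ± 0.22, adjusted p = 0.0234 and lost its call without day-28 replicate 2 or day-14 replicate 1 or 2 (up to 0.0865). The neurotrophin Bdnf stood at 4.47, 4.93 and 1.54 CPM at day 28 and 3.53, 8.28 and 2.80 CPM at day 14 and did not pass (−0.42 ± 0.56, adjusted p = 0.731), and its days overlapped.

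Of the metabolic lists, fatty acid and adipocyte genes gave 2 rises and 1 fall in 26, beside 3.13% and 1.22% of all genes. Fabp4, a fatty acid carrier of fat cells, capillaries and macrophages, stood at 293, 276 and 382 CPM at day 28, 131, 179 and 179.8 CPM at day 14 and 298, 307 and 304 CPM in controls (0.96 ± 0.15, adjusted p = 0.0084). The day-28 libraries spanned the control level, with day 14 below both. Gstm1, a glutathione transferase, stood at 773, 928 and 877 CPM at day 28 and 336, 342 and 421 CPM at day 14 (1.23 ± 0.25, adjusted p = 0.0243); it kept its call with only the 2 days fitted but lost it without day-28 replicate 2 or 3 or day-14 replicate 1 or 2 (up to 0.0817). Cyp1a1, the target of the aryl hydrocarbon receptor, was at 1.15 ± 0.82, adjusted p = 0.48 and Igfbp3, a carrier of insulin-like growth factors, at −0.73 ± 0.26, adjusted p = 0.145. Of 20 tested sterol synthesis genes 19 had a log2 fold change below 0 (median −0.66), 0 were called by edgeR, 1 was higher and 2 were lower at an unadjusted p under 0.05 and 1 was lower by DESeq2.

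Of the 45 lists 29 held at least 1 called gene. Of the 16 with none, the other 11, from the circadian clock to Wnt and hedgehog signalling, held 202 members, of which 34 had an unadjusted p under 0.05 in edgeR and 12 were called by DESeq2. Among lists not yet named, Neb of the skeletal muscle list rose (29.3, 30.6 and 13.03 CPM at day 28 against 6.26, 6.39 and 5.49 CPM at day 14; 2.01 ± 0.28, adjusted p = 0.00411), while the sum of 5 skeletal muscle markers overlapped between the days.

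**Figure D5:**
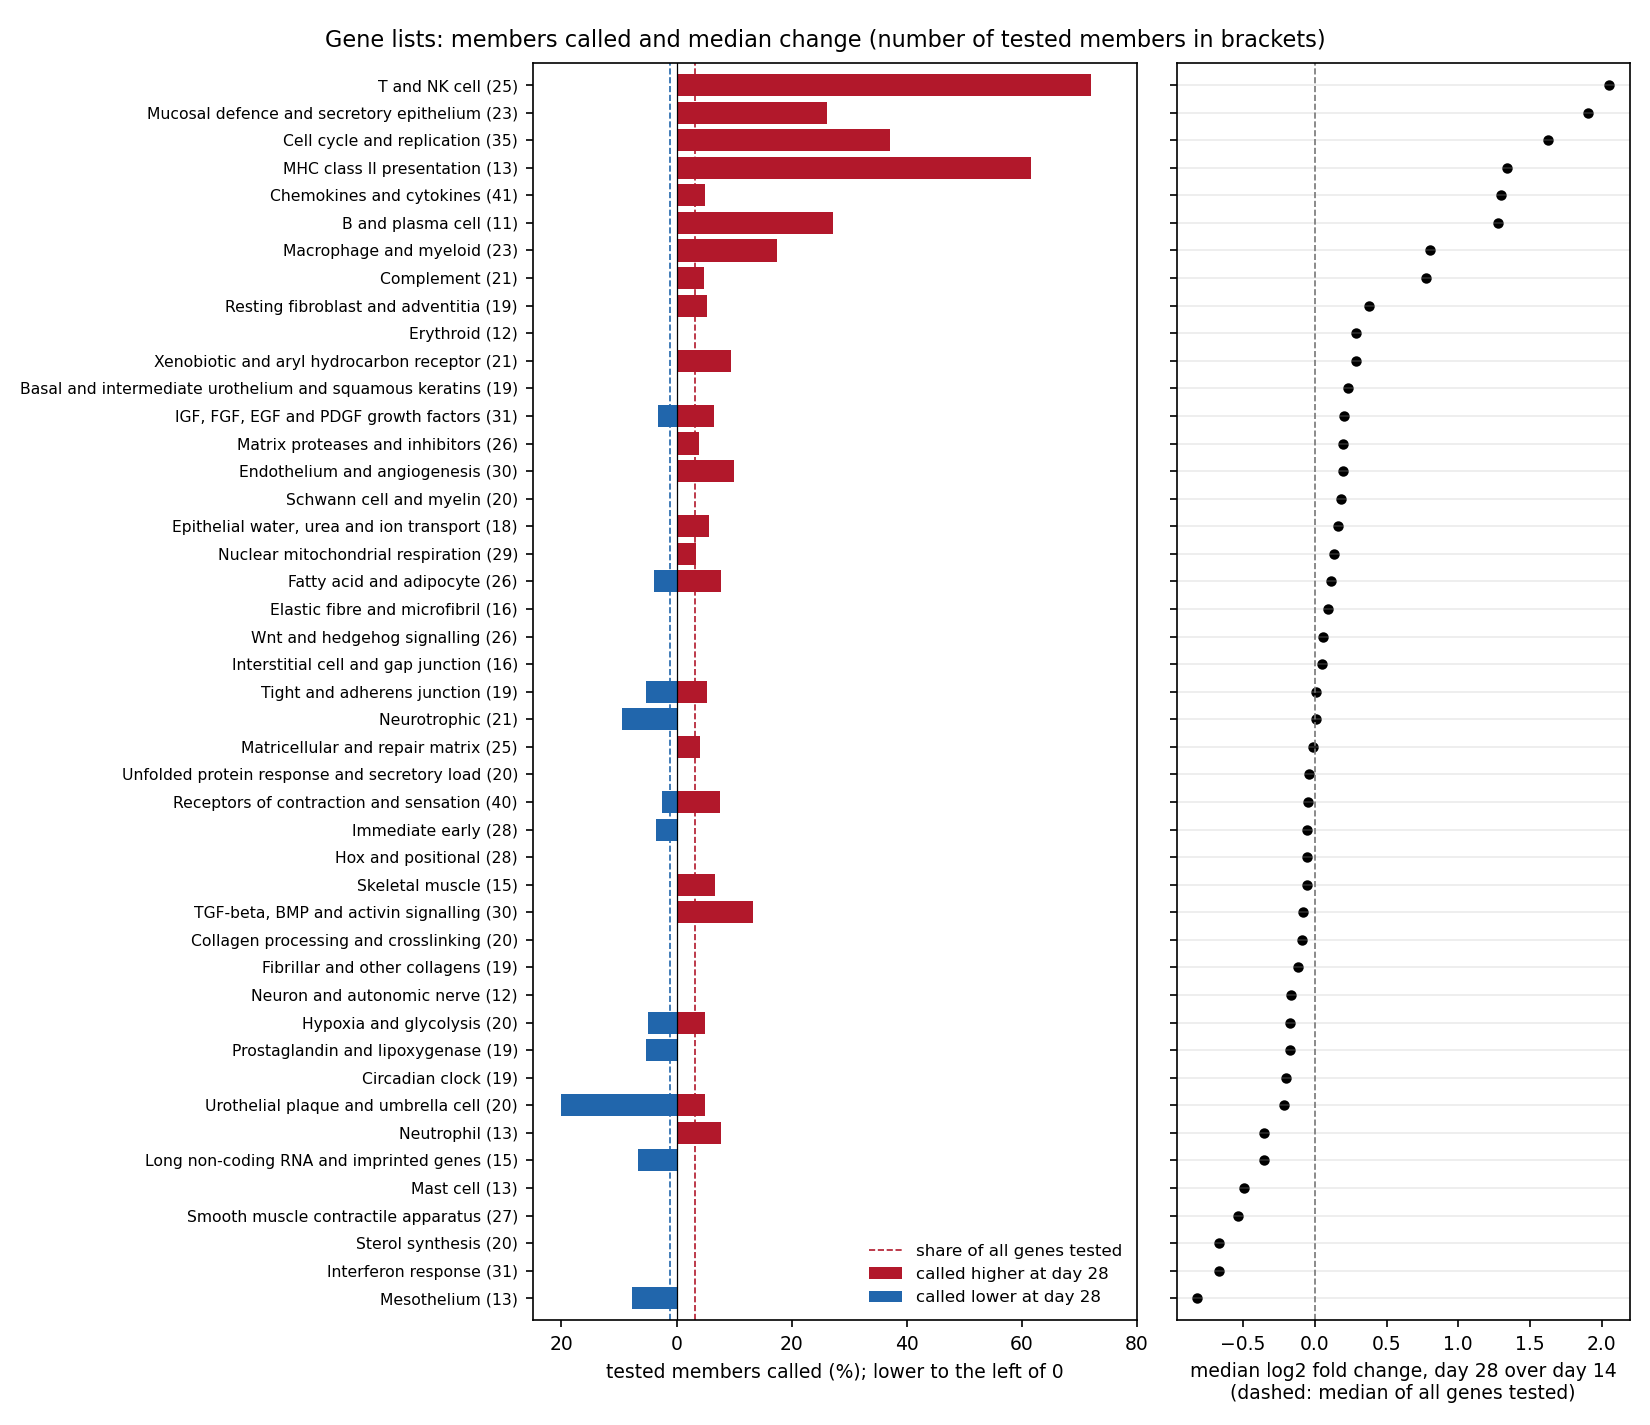
Left, share of tested members called higher (red, to the right) or lower (blue, to the left) at day 28 in each of the 45 lists, with dashed lines at the shares of all genes tested. Right, median log2 fold change of day 28 over day 14 per list, from 2.05 for T and NK cell genes at the top, with the dashed line at the median of all genes tested.

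Long non-coding RNA was the subject of the series. In the table of non-coding transcripts 3896 of 15516 were tested, and 84 rose and 91 fell at an adjusted p under 0.05, together 4.49% (2.16% higher and 2.34% lower). The 175 transcripts came from 86 genes, because 1 read can be counted for several isoforms. The 5 largest named rises were all non-coding isoforms of Tnfrsf14, a receptor of the tumour necrosis factor family, led by XR_354472.2 at 16.1 ± 9.02 CPM at day 28 and 1.998 ± 1.42 CPM at day 14 (SD, n = 3 each; 3.01 ± 0.49, adjusted p = 0.00505 by edgeR). They are 1 observation and not 5.

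Of the falls the smallest p was that of XR_001840194.1, an isoform of the axonemal dynein Dnah9, at 7.66 ± 0.381 CPM at day 28 and 24.7 ± 4.30 CPM at day 14 (SD, n = 3 each; −1.69 ± 0.15, adjusted p = 3.89e-05 by edgeR). Dnah9 is a protein-coding gene and encodes a motor of cilia. The gene as a whole was called too (adjusted p = 0.000587 by edgeR), with a log2 fold change of −1.71 when only the 2 days were fitted. The fall of the isoform is therefore not shown to be apart from that of the coding gene, and the part of shared reads was not tested. ENSRNOT00000093412.1, of the gene that overlaps Pclo, fell too (−2.35 ± 0.26). A further 3 lncRNA genes without a further name fell too, XR_593955.1 of LOC102551611 (−1.68 ± 0.39), XR_001838529.1 of LOC103692686 (−1.67 ± 0.41) and XR_351293.2 of LOC102551027 (−1.62 ± 0.32), all under 3 CPM at either day. Among all genes tested, 11 of 1425 lncRNA genes rose and 11 fell (1.54% called), and of 51 microRNA precursor genes 0 were called by edgeR, 4 at an unadjusted p under 0.05. The imprinted H19 stood at 14.1, 25.1 and 9.21 CPM at day 28 and 4.91, 7.73 and 10.2 CPM at day 14 and did not pass (1.09 ± 0.42, adjusted p = 0.175). Ndn, an imprinted gene of growth restraint, fell (−0.83 ± 0.18, adjusted p = 0.0288). It was the 1 called of the 15 in its list, beside 1.22% of all genes that fell. The Ndn call was lost without day-28 replicate 2 or 3 or day-14 replicate 1 or 2.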

How the data were processed

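Ribosome-depleted RNA of whole bladder was sequenced in 12 libraries, 3 each of day 28, day 14 and day 7 after transection and of uninjured control. The authors deposited raw counts per gene and per non-coding transcript. TPM values, scaled by the authors for gene length and library size per the file headers, were not used for any test. Per the submitters' processing notes the tools included HTSeq 0.11.2, HISAT2 2.1.0 and bcl2fastq and the build was rn6; roles are not stated. How the counting treated strand is not stated in any source used. Genes sharing reads with a copy or an overlapping gene can therefore be misassigned.

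Counts were filtered with edgeR's filterByExpr (count 10, total 15), scaled by TMM and fitted with edgeR 4.0.16 (R 4.3.3) quasi-likelihood in 1 model over the 12 libraries, with Benjamini-Hochberg adjustment over all genes tested. A call is an adjusted p under 0.05. Changes are log2 fold changes of day 28 over day 14 ± SE, and CPM are TMM-scaled. DESeq2 1.42.0, other scalings, filters and sample sets, a replicate block and each library left out were alternatives.

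The members and lists were chosen with earlier results of these data known. Named genes were the 12 largest rises and falls (symbol, called, absolute log2 fold change of at least 1, at least 5 CPM over the 6 libraries, no overlap), up to 4 members of each list by p, a fixed set of genes, and up to 5 non-coding transcripts each way at a mean of at least 1 CPM. At these library totals counting error is small beside replicate spread for all but genes of a few counts. Promoters are RefSeq GRCr8, searched on both strands. Depositors' own comparison tables and the separate mRNA table were not used here. Figures were drawn with matplotlib 3.10.9 in Python 3.11.15.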

Additional observations from a re-analysis of the deposited data

How the results depend on the processing

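No named gene that was called changed direction under any alternative tried. Of the named genes that did not pass, 14 changed sign under at least 1 alternative, and none was called there. Bdnf, Chrm2, Col1a1, Col3a1, Eln, Grem1, Shh, Spp1, Timp1 and Upk3a were among them. Direction was not compared for genes that are not named. The 768 calls (553 higher and 215 lower) became 1647 with DESeq2 (1089 higher and 558 lower, 766 of the 768 among them), 42 with only day 28 and day 14 fitted (28 higher and 14 lower) and 472 when a change of 1 or more on the log2 scale was also asked for. With 1 library left out the total was 261 to 1120, with 197 to 773 higher and 64 to 347 lower. RLE size factors gave 765 calls, no filter 860, a mean of at least 5 CPM 613 and day 28, day 14 and control 561. The 175 non-coding transcripts called became 340 with no filter and 40 to 225 with 1 library left out. Over named genes and alternatives, 3486 values kept their side of the threshold, 336 lost the call and 139 gained it. Fewer samples in the fit leave fewer degrees of freedom; other causes of these shifts were not tested. Same-numbered libraries of the 2 days correlated at 0.0955 to 0.132 and others at −0.126 to 0.0222. Every same-numbered pair thus correlated more than every other pair, though weakly. The labels do not say what a shared number means, so the main fit holds no block. Whether same-numbered libraries share a batch was not tested. The replicate block gave 827 calls, 670 of them among the 768, and 193 non-coding transcripts. Under the block Upk1a and Cd68 had adjusted p of 0.0516 and 0.0609. Low counts limit the T-cell genes: at a mean of at least 5 CPM, 5 were called in place of 18.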
